A study of Mus musculus with 6 samples.

Results

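Brain leukocytes of wild-type C57BL/6 mice with experimental autoimmune encephalomyelitis (EAE) were compared between day 21 and day 13 after induction. The comparison used the 2 libraries labelled Wild-type (day 13) and Wild-type (day 21), and every barcode with 200 or more detected genes and at most 10% of its unique molecular identifiers (UMIs, counted mRNA molecules) on mitochondrial genes. This left 3634 barcodes on day 13 and 5625 on day 21, 9259 of the 20030 barcodes deposited for all 6 libraries of the series. Its other libraries come from unimmunized mice and from miR-155 knockouts, and the series asked how this microRNA shapes infiltrating immune cells. Both groups used here are labelled wild type with no transgene or agent beside the induction, and the labels tell them apart by the day. Viable CD45+ cells, CD45 being the surface protein common to leukocytes, were sorted before droplet sequencing of the 3' ends of mRNA. The labels name brain as the tissue, while the protocol speaks of brain and spinal cord. Each group is stated to hold 5 mice and gave 1 library. Whether the 5 mice were pooled before the library was made, the immunizing antigen and the age of the mice are not stated in the labels. No replicate check exists for any difference below, so no test was made between the days, and the intervals cover counting error only. The titles of the 2 days carry different numeric prefixes, whose meaning the labels do not give, and day and library cannot be told apart.

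EAE is a model of multiple sclerosis in which myelin-reactive T cells enter the central nervous system and recruit monocytes and neutrophils. Microglia, the resident macrophages of the brain, take up an activated state during the attack. Interferon-gamma from T cells induces guanylate-binding proteins, immunity-related GTPases and antigen presentation genes in neighbouring cells, while type I interferon induces the IFIT, OAS and ISG15 antiviral genes.

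Cell classes were called by counting markers: a barcode joined a class when it carried UMIs of a set number of that class's markers (3 of 6 for microglia, 5 of 7 for monocytes and macrophages, 3 of 8 for T cells, 3 of 7 for B cells and 4 of 7 for neutrophils) and passed no other gate. These classes are marker gates and not clusters, and their marker genes are not results. Ptprc, which encodes CD45, stood at 342 CPM (UMIs scaled to a common total) on day 13 and 387 CPM on day 21. In wild-type libraries Mir155hg, the miR-155 host transcript, gave 45 and 59 UMIs. Markers of red blood cells gave no UMI in 4 of the 5 classes compared, and in monocytes they reached 0.625 CPM on day 21.

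The make-up of the sorted leukocytes differed between the days. Microglia were 25.8% of kept barcodes on day 13 (936 barcodes, exact binomial 95% interval 24.3 to 27.2%) and 9.33% on day 21 (525 barcodes, 8.59 to 10.1%), a ratio of 0.362. T cells stood the other way, at 10.3% on day 13 (375 barcodes, 9.35 to 11.4%) and 22.4% on day 21 (1259 barcodes, 21.3 to 23.5%), a ratio of 2.17. B cells were 8.59% on day 13 and 3.32% on day 21, and plasmacytoid dendritic cells, the main producers of type I interferon, were 66 barcodes (1.82%) and 21 (0.373%). Neutrophils were 9.11% and 13.2%, and natural killer cells 0.826% and 1.55%. Monocytes and macrophages differed least among the large classes, at 16.5% and 13.4%, and conventional dendritic cells were 2.61% and 1.92%. These are shares of 1 sorted sample, so a lower share does not tell fewer cells of that class from more cells of another.

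**Figure D1:**
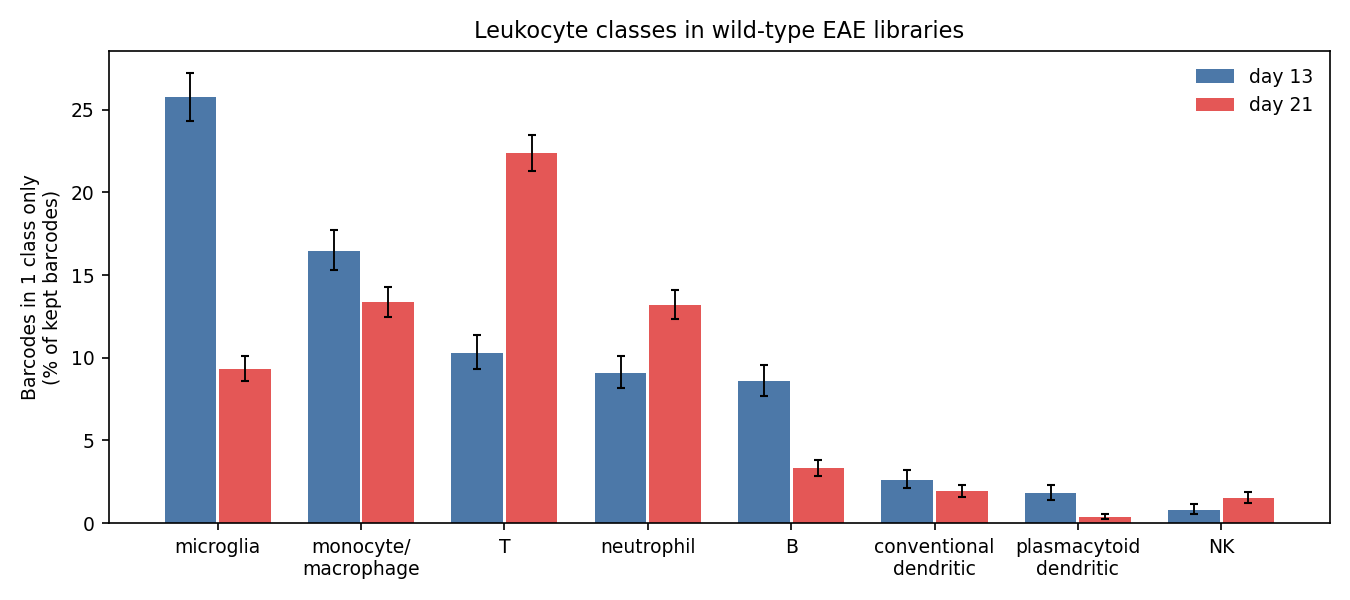
Share of kept barcodes (%) that passed the gate of 1 leukocyte class only, for wild-type mice on day 13 (blue) and day 21 (red) of EAE; bars are 1 library each and error bars are exact binomial 95% intervals of counting error. Microglia and B cells take smaller shares on day 21, T cells and neutrophils larger ones.

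Many barcodes passed several gates, 19.1% on day 13 and 25.9% on day 21, and these were left out of the classes. Of barcodes that passed the microglia gate, 25.3% on day 13 and 56.3% on day 21 also passed the T gate, and their part in the lower microglial share was not tested. Counting every barcode that passed the microglia gate gave 38.9% and 25%, a ratio of 0.643, and for T cells 23.1% and 43.5%, a ratio of 1.88. The median depth was 4375 UMIs per barcode on day 13 and 3340 on day 21. It was lower on day 21 in every class compared, for example 6302 against 3943 UMIs in monocytes and 4335 against 2585 in neutrophils.

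Within a class, UMIs were summed over its barcodes and scaled to CPM. A gene was measured with 10 CPM or more on either day and 30 UMIs or more over both, and it is called higher or lower on day 21 from a 1.5-fold difference on the scale of CPM plus 1. In neutrophils 5.26% of 4921 measured genes were higher and 17.9% lower on day 21. The other backgrounds were 6.94% higher and 6.77% lower of 6676 genes in monocytes and macrophages, 4.18% and 8.35% of 7425 in microglia, 4.86% and 9.14% of 7309 in T cells, and 6.72% and 10.8% of 3957 in B cells. Scaling by trimmed means (edgeR TMM) changed the balance in T cells from 355 higher and 668 lower genes to 566 and 396, and in neutrophils from 259 and 881 to 407 and 597. TMM moved all genes on the log2 scale by 0.12 in T cells and by 0.14 in neutrophils, against at most 0.04 in microglia, monocytes and B cells, and within the T class by 0.15 in CD8 and 0.07 in CD4 cells, so the medians below are set beside the median of all measured genes.

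**Figure D2:**
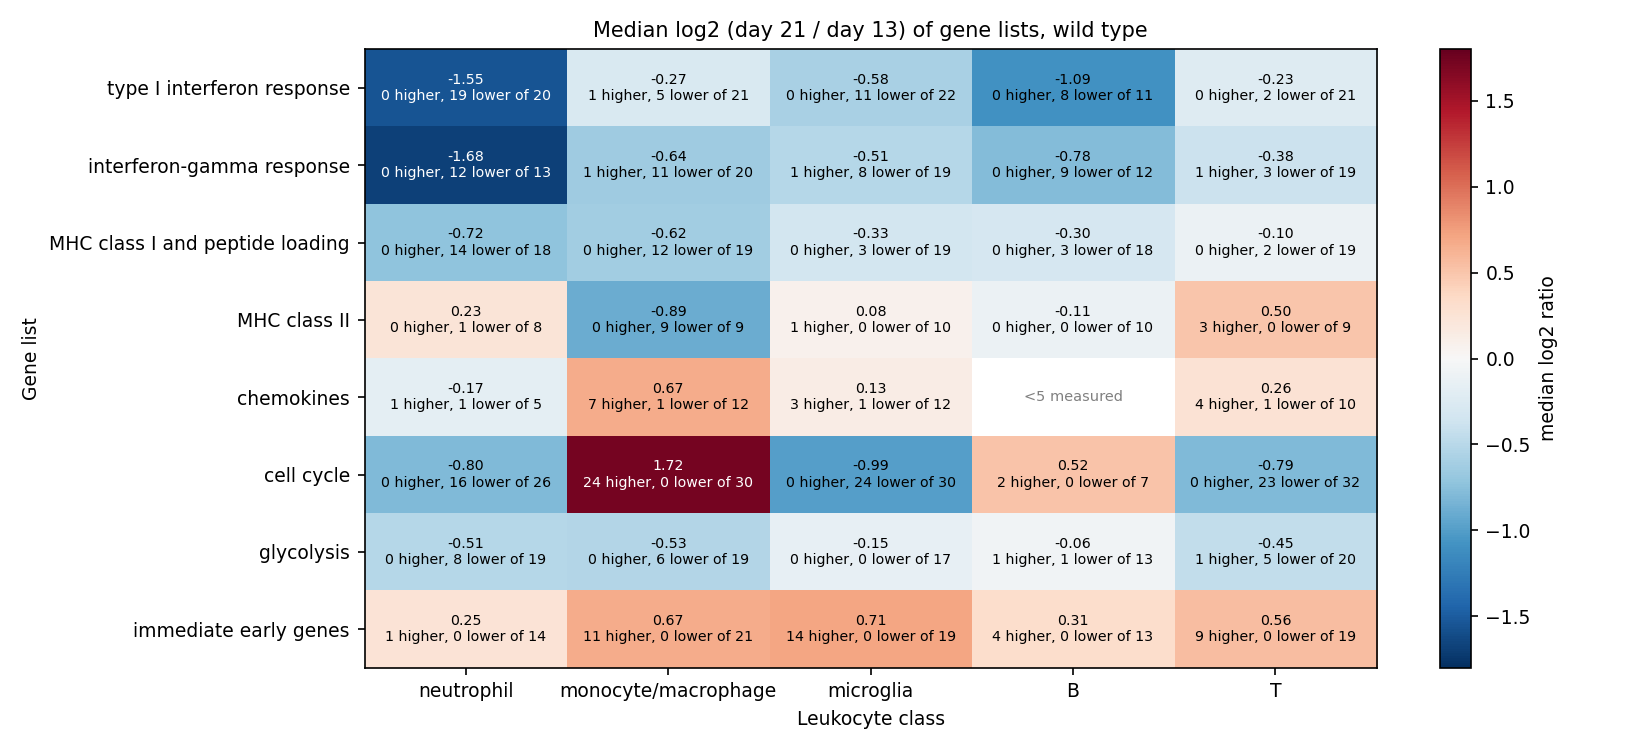
Median log2 ratio of day 21 to day 13 for 8 gene lists (rows) in 5 leukocyte classes (columns), wild type, 1 library a day; each cell also gives how many measured members were 1.5-fold higher or lower. Interferon lists are lowest in neutrophils (-1.55 and -1.68), MHC class II is lowest in monocytes and macrophages (-0.89), and cell cycle genes are highest in monocytes and macrophages (1.72).

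Neutrophils of day 21 carried far less interferon-induced RNA. Of the type I interferon response genes, 19 of 20 measured members were lower and none was higher, with a median log2 ratio of -1.55, against -0.17 over all measured genes of the class. With barcodes of several gates kept, this median was -0.95. The make-up of the class also differed: 81.3% of its barcodes on day 13 and 91.9% on day 21 held more than 10 UMIs of the granule genes Camp, Ngp and Ltf together. Summed markers of other cells were lower on day 21 for progenitors (130.8 and 67.2 CPM over 5 markers, all detected) and for monocytes and macrophages (5036 and 3433 CPM, 6 and 7 of 7 detected), and higher for T cells (32.5 and 74.7 CPM, 7 and 8 of 8 detected). Their part in the lower interferon values was not tested. Irf7, a transcription factor that amplifies interferon production, stood at 237 CPM on day 13 and 61.0 CPM on day 21, 3.89-fold lower (exact 95% interval 3.20 to 4.75). Ifit3, which restricts viral RNA, was at 110 and 23.4 CPM, 4.69-fold lower (3.44 to 6.49), and its neighbour Ifit3b, a near-identical copy whose reads may be shared, at 39.5 and 7.96 CPM. Isg15, a ubiquitin-like modifier, was at 441 and 143 CPM. The intervals of the 2 days do not overlap for any of these genes.

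The interferon-gamma list was lower in neutrophils as well, in 12 of 13 measured members, with a median of -1.68, or -0.76 with barcodes of several gates kept. Gbp2, a guanylate-binding protein that coats pathogen vacuoles, stood at 227 and 39.3 CPM, 5.76-fold lower (4.57 to 7.34), with UMIs in 138 of 331 barcodes on day 13 and in 58 of 742 on day 21. Ifi47, an immunity-related GTPase, was at 91.8 and 21.2 CPM, 4.33-fold lower (3.12 to 6.11). RNA of the MHC class I and peptide loading genes was lower too, with 14 of 18 measured members lower (median -0.72). Among these, H2-T23, a non-classical class I molecule, was at 79.6 and 31.4 CPM, 2.54-fold lower (1.89 to 3.43), and Tap1, a subunit of the peptide transporter, at 115 and 49.5 CPM, 2.32-fold lower (1.83 to 2.96).

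Some promoters of these genes carry letters that interferon-activated factors are known to bind, and those of Ifit3 and Gbp2 are shown as 1 example from each list. In RefSeq promoter windows of build GRCm38.p6, 250 bases before to 50 after a start, an interferon-stimulated response element (ISRE, searched on both strands as a tetramer repeated after any 2 bases, as the capitals below show) stood in 9 of the 16 type I genes matched among the 19 lower in neutrophils, and in 6 of 9 interferon-gamma genes matched among the 12. Over all genes with a window the share was 3.99%. The gamma-activated site (GAS, searched as TTCNNNGAA on both strands, which may overlap an ISRE) stood in 4 of 16 and 5 of 9, against 9.55% of all genes. Both lists were compiled from known interferon targets, so these shares describe the lists, and a match is not a binding site. Upstream of the start, an ISRE was sought in Ifit3, Ifit2, Irf7, Gbp2, Gbp4 and Ifi47. Only Ifit3 and Gbp2 gave a match there, and the others had none or had no window. The upstream stretches below are on the plus strand, 5′ to 3′, with the ISRE matches in capitals; they lie at chr19:34583313-34583476 for Ifit3, with 2 matches that begin 156 and 122 bases before the start, and at chr3:142620544-142620662 for Gbp2, with 1 match that begins 59 bases before it.
Ifit3: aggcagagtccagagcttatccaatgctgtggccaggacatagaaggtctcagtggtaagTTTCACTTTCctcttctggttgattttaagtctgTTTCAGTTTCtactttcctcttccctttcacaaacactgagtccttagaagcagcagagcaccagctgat
Gbp2: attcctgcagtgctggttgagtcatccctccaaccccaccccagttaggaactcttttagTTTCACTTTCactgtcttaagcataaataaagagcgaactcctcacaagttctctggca

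Granule and secretory genes of neutrophils did not differ as 1 group. Of 30 measured members, 9 were lower and 2 higher, with a median of -0.18, close to that of all genes. The lower members were led by the stefin A genes, small cysteine protease inhibitors: Stfa2 stood at 537 CPM on day 13 and 43.8 on day 21, 12.3-fold lower (9.97 to 15.3), and Stfa1 at 868 and 104 CPM, 8.32-fold lower (7.25 to 9.59). Stfa3 (436 and 31.4 CPM) and BC100530 (1378 and 118 CPM) followed the same direction. These genes are near-identical copies in 1 cluster, so how reads were split among them is uncertain. Stfa2 had UMIs in 106 of 331 barcodes on day 13 and in 34 of 742 on day 21. Stfa1 had them in 76 and 44 barcodes, with 430 of its 1494 day 13 UMIs in 5 barcodes. The part of the class make-up in these differences was not tested. Camp, the cathelicidin of secondary granules, was 1.57-fold higher at 33850 CPM, while Ngp (47610 and 49850 CPM) and Ltf, lactoferrin (9425 and 8586 CPM), differed by less than 1.5-fold.

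Among single neutrophil genes, Wfdc17, a small secreted protein with an antiprotease fold, stood at 3425 CPM on day 13 and 443 on day 21, 7.73-fold lower (7.22 to 8.27). Saa3, an acute-phase apolipoprotein, had 155 UMIs in 37 barcodes on day 13, 42 of them in 1 barcode, and 2 UMIs on day 21, a ratio of 0.00981 (0.00118 to 0.0361). Cd38, an NAD-consuming surface enzyme, was 5.99-fold lower (76.7 and 12.8 CPM), and Prnp, the prion protein gene, 8.80-fold lower (50.6 and 5.75 CPM). Higher on day 21 were Thbs1, the matrix protein thrombospondin-1 (19.8 and 75.6 CPM, 3.83-fold, 2.64 to 5.70), Slc7a11, the cystine transporter (28.5 and 84.0 CPM, 2.95-fold), Chil5, a chitinase-like gene (27.9 and 61.9 CPM), and Osm, the cytokine oncostatin M (64.5 and 136 CPM, 2.10-fold, 1.69 to 2.64). Crip1, Tnfsf13b, which encodes the B cell survival factor BAFF, and Sorl1 were 1.77-fold to 1.98-fold higher, with 50 of the 130 Crip1 UMIs on day 21 in 5 barcodes. Gngt2 was 1.84-fold higher in the sums, but 17 of its 133 UMIs on day 21 lay in 1 barcode and the mean over barcodes gave a log2 ratio of -0.011. Inflammatory mediators went both ways: Il1b, interleukin-1 beta, was 2.13-fold lower (107 and 50.4 CPM), Il18bp, the interleukin-18 decoy, 2.93-fold lower, and Nfkbiz, an NF-kB cofactor, 2.19-fold higher (20.3 and 44.6 CPM). Of 19 measured glycolysis genes, 8 were lower (median -0.51), led by Pfkl, a phosphofructokinase (33.1 and 6.19 CPM). Cell cycle genes were lower in 16 of 26 (median -0.80), but this median was 0.17 after every barcode was thinned to 1500 UMIs and 0.51 without high-UMI barcodes.

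**Figure D3:**
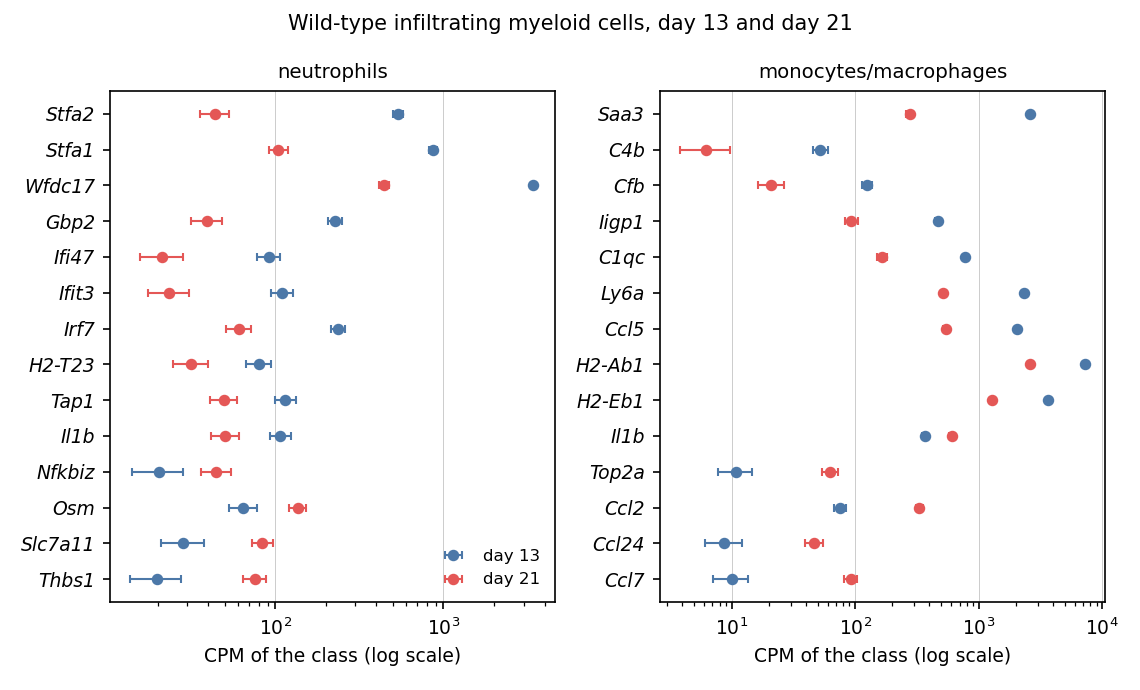
CPM (log axis) of named genes in neutrophils (left) and monocytes and macrophages (right) on day 13 (blue) and day 21 (red), wild type, 1 library a day; bars are exact Poisson 95% intervals of counting error and are hidden where smaller than the point. Interferon genes such as Gbp2 lie lower on day 21 in neutrophils, and the MHC class II genes H2-Ab1 and H2-Eb1 lower in monocytes and macrophages, whereas Ccl2, Ccl7, Ccl24 and Top2a lie higher there.

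Monocytes and macrophages of day 21 held less antigen presentation and complement RNA and more RNA for monocyte-attracting chemokines and the cell cycle. All 9 measured members of the MHC class II list, which also holds the protease gene Ctss, were lower. Their median log2 ratio was -0.89 against 0.00 over all genes of the class. H2-Ab1, the beta chain of the class II molecule I-A, stood at 7207 CPM on day 13 and 2586 on day 21, 2.79-fold lower (2.72 to 2.86). H2-Eb1, the beta chain of I-E, was at 3626 and 1281 CPM, H2-Aa, the I-A alpha chain, at 5994 and 2477 CPM, and Ciita, the master regulator of class II transcription, at 74.9 and 42.2 CPM. Conventional dendritic cell markers, which belong to cells rich in class II, were higher on day 21 in this class (81.3 and 231 CPM summed over 10 markers, 10 and 9 of them detected). Their part was not tested.

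Of the complement and phagocytosis genes, 13 of 20 measured members were lower and none higher (median -0.79). C4b, a component of the classical pathway, was at 52.3 and 6.25 CPM, 8.37-fold lower (5.28 to 14.0), and Cfb, factor B of the alternative pathway, at 125 and 20.9 CPM, 5.98-fold lower (4.62 to 7.84). C1qc and C1qa, chains of the recognition protein C1q, were 4.67-fold (771 and 165 CPM) and 4.26-fold lower (847 and 199 CPM). C1q is also abundant in microglia, and the 6 microglia markers summed to 55.1 CPM on day 13 and 42.8 CPM on day 21 in this class. Saa3 was 9.34-fold lower (2585 and 277 CPM, 8.72 to 10.0), with UMIs in 293 of 599 barcodes on day 13 and 105 of 751 on day 21.

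The interferon lists differed from each other in these cells. Of the interferon-gamma genes, 11 of 20 were lower and 1 was higher (median -0.64), led by the immunity-related GTPase Iigp1 (467 and 93.4 CPM, 5.00-fold, 4.42 to 5.67) and Gbp8 (60.2 and 15.0 CPM). The higher member was Cxcl10, a chemokine for CXCR3-bearing T cells, at 591 and 1261 CPM, while its relative Cxcl9 was at 377 and 393 CPM. Of the type I genes, 5 of 21 were lower and 1 higher (median -0.27), with Oas1a, a sensor of double-stranded RNA, at 140 and 65.0 CPM. MHC class I and peptide loading genes were lower in 12 of 19 (median -0.62), among them H2-Q7 (334 and 111 CPM) and H2-Q6, copies so alike that their split is uncertain. The Ly6 family genes Ly6a, the stem cell antigen gene (2317 and 518 CPM, 4.47-fold lower, 4.25 to 4.72), and Ly6i (1314 and 391 CPM) also stood lower on day 21.

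Of 12 measured chemokines, 7 were higher and 1 lower in this class (median 0.67). Ccl2, the main ligand of the monocyte receptor CCR2, stood at 75.6 CPM on day 13 and 331 on day 21, 4.38-fold higher (3.84 to 5.00), with UMIs in 98 of 599 and 225 of 751 barcodes. Ccl7, a second CCR2 ligand, was at 10.0 and 91.8 CPM, 9.18-fold higher (6.56 to 13.2), but its UMIs lay in 41 barcodes on day 21 and 60 of 294 in 1 of them. Ccl24, an eosinophil attractant of alternatively activated macrophages, was at 8.72 and 46.5 CPM in 12 and 25 barcodes. The lower member was Ccl5, a chemokine that recruits T cells, at 2062 and 542 CPM, 3.81-fold lower (3.62 to 4.01). Of the macrophage activation genes, 7 of 14 were lower and none higher (median -0.54), among them Ecm1 (136 and 67.5 CPM), the collagenase-activating protease Mmp14 (98.2 and 46.2 CPM) and Arg1, arginase, at 194 and 101 CPM. Il1b was 1.64-fold higher (369 and 606 CPM) and Il1rn, its natural antagonist, 1.63-fold higher, whereas Il18bp was 4.45-fold lower (150 and 33.7 CPM) and Il1r2, the interleukin-1 decoy receptor, 7.62-fold lower (159 and 20.9 CPM).

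Cell cycle genes were higher in 24 of 30 measured members in monocytes and macrophages, with none lower (median 1.72). Top2a, the topoisomerase of dividing cells, stood at 10.8 and 62.8 CPM, 5.83-fold higher (4.16 to 8.34), Birc5, survivin, at 12.05 and 60.9 CPM, and Ube2c, a mitotic ubiquitin enzyme, at 12.6 and 67.2 CPM. The RNA was held by few barcodes, 18 with a Top2a UMI on day 13 and 48 on day 21. With every barcode thinned to 1500 UMIs, which none fell short of, 3.17% on day 13 (1.92 to 4.91%) and 8.92% on day 21 (6.98 to 11.2%) held 5 or more of the 32 cell cycle genes in the files, against 1.28% and 1.07% in B cells. Without thinning the shares stood in the opposite order, at 40.2% and 22.4%, with median depths of 6302 and 3943 UMIs. The list median was 0.77 after thinning, 0.47 with barcodes of several gates kept, 1.02 without high-UMI barcodes and 1.56 without granule-rich barcodes, those with more than 10 UMIs of Camp, Ngp and Ltf together. Camp (97.2 and 673 CPM) and Ngp (154 and 836 CPM), which immature neutrophils express, were among the 8 highest ratios of genes with 50 CPM or more on either day and 100 UMIs or more, but on day 21 the 5 highest barcodes held 1503 of the 2156 Camp UMIs. Granule-rich barcodes were 1 of 599 on day 13 and 7 of 751 on day 21, and without them the log2 ratio of Ngp was -0.36 and that of Ltf -0.19. The ratio of Camp did not reverse there.

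Microglia differed little between the days in resident and class II genes, while interferon and proliferation genes were lower on day 21. Of 24 homeostatic microglia genes, 23 differed by less than 1.5-fold, and the median log2 ratio was 0.07 against -0.06 over all genes. Csf1r, the receptor microglia need to survive, stood at 2657 and 2063 CPM, and Cx3cr1, the fractalkine receptor, at 955 and 1219 CPM. The disease-associated list had 2 of 16 higher and none lower (median 0.13). Apoe, the lipid carrier, was at 10950 CPM on both days, and Trem2, a lipid receptor, at 1738 and 1969 CPM. Of 10 members of the MHC class II list, 9 were within 1.5-fold (median 0.08). H2-Aa was at 2305 and 2680 CPM and Cd74, the invariant chain, at 12500 and 12180 CPM. This stands beside 9 of 9 lower members of the same list in monocytes and macrophages from the same 2 libraries. The difference between classes was not tested. Over the alternatives the microglial medians took both signs. They ran from -0.36 to 0.11 for the homeostatic list, from -0.27 to 0.20 for the disease-associated list and from -0.35 to 0.12 for MHC class II.

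Type I interferon genes were lower in 11 of 22 measured members in microglia, with none higher (median -0.58). Oas1a stood at 72.8 and 33.0 CPM, 2.21-fold lower (1.59 to 3.13), Oasl2 at 221 and 122 CPM, and Stat2, a subunit of the ISRE-binding complex, at 69.8 and 36.1 CPM. Of the interferon-gamma genes, 8 of 19 were lower and 1 higher (median -0.51), with Gbp4 at 86.7 and 36.8 CPM, 2.35-fold lower (1.72 to 3.27), and Iigp1 at 333 and 182 CPM. Ifitm1, a membrane protein that blocks virus entry, was 2.45-fold lower (109 and 44.5 CPM, 1.85 to 3.30), and Mnda, an interferon-inducible nuclear protein, 2.35-fold lower (83.0 and 35.3 CPM). Cell cycle genes were lower in 24 of 30, with none higher (median -0.99), the opposite sign to monocytes and macrophages. Mki67, the proliferation antigen Ki-67, stood at 33.1 and 7.67 CPM, 4.31-fold lower (2.25 to 9.27), and Top2a at 59.2 and 21.5 CPM. In thinned barcodes, 11% on day 13 (9.07 to 13.2%) and 4.76% on day 21 (3.11 to 6.95%) held 5 or more cell cycle genes, and 20.7% and 9.90% before thinning.

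Immediate early genes, transcribed within minutes of a stimulus or of tissue handling, were higher in 14 of 19 measured members in microglia, with none lower (median 0.71). Fos stood at 223 and 510 CPM, 2.28-fold higher (2.05 to 2.55), and Egr1 at 80.4 and 170 CPM. Hspa1a, an inducible heat shock protein, was 3.53-fold higher (107 and 380 CPM, 3.07 to 4.08), and 2 of 11 heat shock genes were higher. Ddit4, a stress-induced inhibitor of growth signalling, was 2.97-fold lower (82.0 and 27.6 CPM). The list was also higher in 11 of 21 members in monocytes and 9 of 19 in T cells, and in 4 of 13 in B cells and 1 of 14 in neutrophils (median 0.25), and dissociation and day cannot be told apart here. Among genes with 50 CPM or more on either day and 100 UMIs or more, the highest ratio was that of Cxcl13, a B cell attractant (36.4 and 150 CPM, 4.11-fold, 3.24 to 5.24), yet it came from 15 barcodes on day 13 and 21 on day 21, with 69 of 110 and 84 of 195 UMIs in 1 barcode. Ccl5 was 1.64-fold higher (619 and 1017 CPM), with 253 of 1325 UMIs in 1 barcode on day 21. T cell markers in these microglia summed to 37.7 and 147 CPM over 8 markers, all detected on both days, and their part was not tested. Chil3, Camp, Ngp and Ltf also ranked among the 8 highest ratios by these minimums. On day 21, 1 barcode held 543 of 694 Ngp UMIs and 1 held 202 of 430 Chil3 UMIs, and without high-UMI barcodes both ratios reversed, to -0.52 and -0.63.

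**Figure D4:**
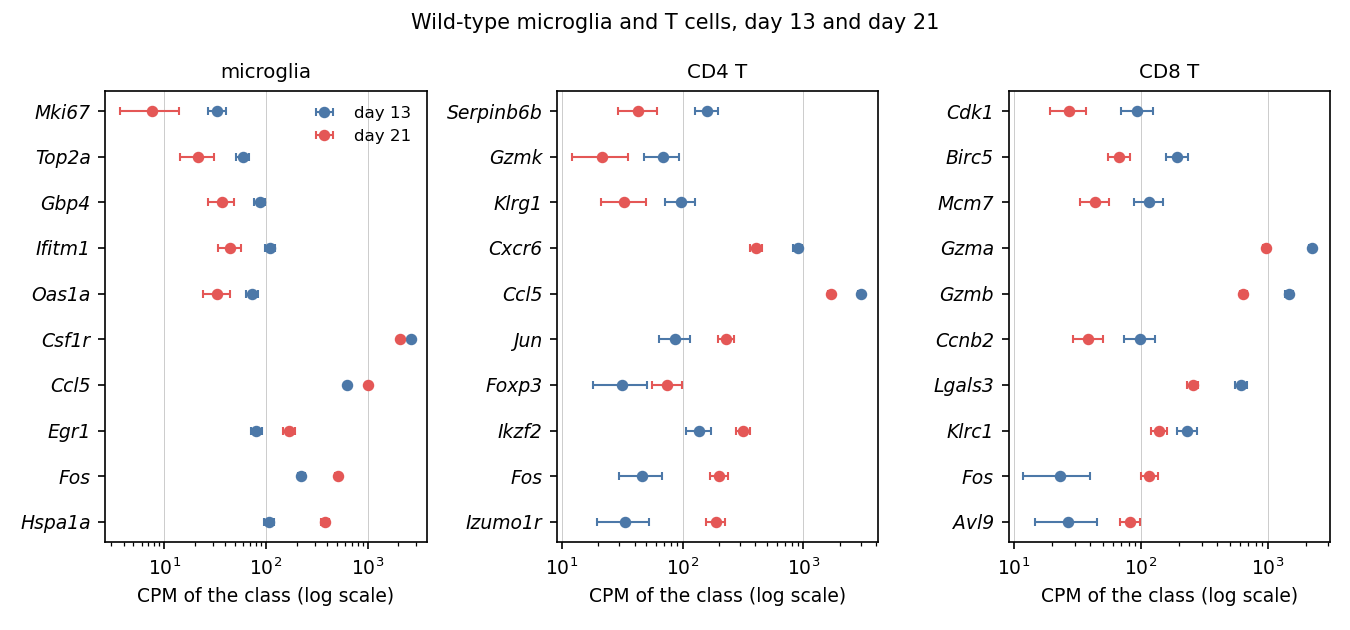
CPM (log axis) of named genes in microglia (left), CD4 T cells (middle) and CD8 T cells (right) on day 13 (blue) and day 21 (red), wild type, 1 library a day; bars are exact Poisson 95% intervals of counting error. Cell cycle genes lie lower on day 21 in microglia and CD8 T cells, and Foxp3, Ikzf2 and Izumo1r lie higher in CD4 T cells.

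The balance of CD4 and CD8 cells within the T class differed between the days. Of T cell barcodes, 34.7% on day 13 and 18.3% on day 21 carried Cd4 and no Cd8 UMI, whereas 29.6% and 40.7% carried Cd8a or Cd8b1 and no Cd4 UMI. The rest carried neither or both, and the median depth was 3206 and 2258 UMIs. Over all T cells, cell cycle genes were lower in 23 of 32 measured members, with none higher (median -0.79 against -0.12 over all genes). Cdk1, the mitotic kinase, stood at 51.6 and 19.8 CPM, 2.61-fold lower (1.87 to 3.65), and Ccna2, cyclin A, at 63.3 and 24.3 CPM. Mt1, metallothionein, was 3.25-fold lower (92.7 and 28.5 CPM), but on day 13 it lay in 44 of 375 barcodes, with 74 of 142 UMIs in 5 of them. Of 20 glycolysis genes 5 were lower and 1 higher (median -0.45), with Eno1, enolase, at 807 and 438 CPM. Fos was 3.20-fold higher (52.9 and 169 CPM, 2.54 to 4.09) and Jun 2.49-fold higher (86.2 and 215 CPM). Naive and homing genes showed 1 higher and 1 lower of 11 (median -0.09), beside 4.86% higher and 9.14% lower of all measured genes. The higher member was Dapl1 (log2 ratio 0.75), and the lower was Lef1, a factor of naive T cells, at 128 and 76.0 CPM (-0.74).

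The CD4 cells of day 21 carried more regulatory T cell RNA and less effector RNA. Here 7.43% of 4577 measured genes were higher and 11.6% lower, 340 and 532 genes, or 417 and 410 with TMM scaling. Izumo1r, folate receptor 4 of regulatory and anergic T cells, stood at 33.3 and 188 CPM, 5.66-fold higher (3.44 to 9.85), in 12 and 55 barcodes. Foxp3, the lineage factor of regulatory T cells, was at 31.4 and 74.7 CPM, 2.38-fold higher (1.35 to 4.39), and Ikzf2, Helios, at 137 and 315 CPM, 2.30-fold higher (1.76 to 3.04). Of 11 measured regulatory genes, 5 were higher and 1, Klrg1, was lower (median 0.56 against -0.08 over all genes). Over the alternatives the median of this list ran from 0.22 to 0.68. A Foxp3 UMI was present in 9 of 130 CD4 barcodes on day 13 (6.92%, 3.21 to 12.7%) and 32 of 230 on day 21 (13.9%, 9.72 to 19.1%), at median depths of 3342 and 2343 UMIs. In neutrophils, which should lack it, the shares were 0.604% and 0.539%. After thinning, the CD4 shares were 3.85% (1.26 to 8.75%) and 6.52% (3.70 to 10.5%), whose intervals overlap. Over the whole T class, a Foxp3 UMI was present in 27 of 375 barcodes on day 13 (7.20%) and 115 of 1259 on day 21 (9.13%). The ratio of these shares was 1.27, with an interval of 0.848 to 1.90 that includes no difference. In thinned T barcodes the shares were 4.53% and 5.32%.

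Cytotoxicity genes were lower in 10 of 13 measured members in CD4 T cells, with 1 higher (median -0.86). The Th1 and Th17 list was lower in 8 of 11, with 1 higher (median -0.72). Over the alternatives these medians ran from -0.99 to -0.28 and from -0.72 to -0.28. Tbx21 and Ccl5, both lower, are in both lists, so these counts overlap. Klrg1 is in the cytotoxicity list and also in the regulatory list. Gzmk, a granzyme of effector memory cells, stood at 68.4 and 21.6 CPM, 3.17-fold lower (1.70 to 6.22), and Klrg1, a receptor of terminally differentiated cells, at 96.1 and 33.0 CPM, 2.91-fold lower (1.75 to 4.98). Tbx21, the Th1 master factor T-bet, was at 40.6 and 15.8 CPM (22 and 11 UMIs), Cxcr6, a homing receptor, at 892 and 405 CPM, 2.20-fold lower (1.90 to 2.56), and Ccl5 at 2989 and 1684 CPM. The higher Th17 member was Ccr6, with 5 and 25 UMIs. Gzma was 3.98-fold lower in the sums, but 1 barcode held 53 of 96 UMIs on day 13 and 1 held 23 of 31 on day 21, and after thinning its log2 ratio was 0.67. Saa3 led the lower genes, yet 230 of its 234 UMIs on day 13 lay in 1 barcode. Of 28 measured cell cycle genes, 3 were higher and 2 lower in CD4 T cells (median 0.20), and the median ran from -0.36 to 0.26 over the alternatives. In thinned barcodes 15 of 130 and 23 of 230 held 5 or more cell cycle genes, and 36.2% and 24.3% before thinning.

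CD8 T cells of day 21 held less cell cycle RNA. Of 5646 measured genes, 8.64% were higher and 13.6% lower, 488 and 770 genes, and TMM scaling turned this to 706 and 435. Cell cycle genes were lower in 28 of 32 and higher in none (median -1.07 against -0.11 over all genes, and -0.92 with TMM). Cdk1 stood at 93.3 and 26.9 CPM, 3.47-fold lower (2.23 to 5.43), Birc5 at 192 and 67.5 CPM, 2.85-fold lower (2.14 to 3.80), and Mcm7, a helicase subunit of DNA replication, at 116 and 43.4 CPM. In thinned barcodes, 20.7% on day 13 (13.6 to 29.5%) and 10.7% on day 21 (8.20 to 13.8%) held 5 or more cell cycle genes, and 44.1% and 20.3% before thinning. Gzmb, granzyme B, was 2.30-fold lower (1470 and 638 CPM, 2.09 to 2.54), with 178 of 772 UMIs in 1 barcode on day 13, and its log2 ratio was -0.66 without high-UMI barcodes. Gzma, granzyme A, was 2.31-fold lower (2224 and 964 CPM), with 472 of 1168 UMIs in 1 barcode on day 13, and its log2 ratio was -0.76 without high-UMI barcodes. The cytotoxicity list as a whole had 4 of 15 lower and none higher (median 0.01), with Nkg7, a granule membrane protein, at 2573 and 3214 CPM. Itgae, the integrin chain CD103 of tissue-resident T cells, had 1 UMI on day 13 and 32 on day 21, in 22 barcodes, a ratio of 11.6 (1.93 to 471). Il2ra, the high-affinity chain of the interleukin-2 receptor, was 2.59-fold lower (57.1 and 22.04 CPM). Of the 97 Ccl1 UMIs on day 21, 78 lay in 1 barcode.

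B cells of day 21 also carried less interferon-induced RNA. Type I genes were lower in 8 of 11 measured members and higher in none (median -1.09 against -0.06 over all genes, or -0.42 with barcodes of several gates kept), and interferon-gamma genes in 9 of 12 and none (median -0.78). Gbp2 stood at 266 and 54.2 CPM, 4.91-fold lower (3.19 to 7.92), in 107 of 312 barcodes on day 13 and 17 of 187 on day 21. Zbp1, a sensor of left-handed nucleic acids, was at 187 and 75.4 CPM, 2.49-fold lower (1.69 to 3.76). Irf7 was at 65.3 and 25.9 CPM, 2.52-fold lower (1.30 to 5.35). Pik3ip1, an inhibitor of PI3 kinase in resting lymphocytes, was 2.77-fold lower (182 and 66.0 CPM). MHC class I genes were lower in 3 of 18 (median -0.30) and B lineage stage genes in 2 of 18 (median -0.17), beside 10.8% of all measured genes. The 2 lower lineage members were Cr2 (log2 ratio -0.73) and Ighd, the IgD heavy chain of mature naive B cells, at 427 and 271 CPM. Zbtb20 of the same list stood the other way (0.54), within 1.5-fold. Fos was 3.52-fold higher (55.5 and 195 CPM, 2.42 to 5.19). Several of the higher genes belong to other cells. Lyz2, C1qa, C1qc and Camp rested on few barcodes, with 462 of 765 Camp UMIs and 26 of 66 C1qc UMIs in 1 barcode each on day 21, and after thinning the ratios of C1qc and Camp reversed, to -0.43 and -0.15.

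Few genes differed the same way in all 5 classes. Of 3090 genes measured in every class, 2 were higher in all (0.0647%) and 3 were lower in all (0.0971%). The higher genes were Zfp36, which encodes tristetraprolin, a protein that degrades cytokine mRNA, with log2 ratios of 0.64 to 0.97, and Camp. In each class outside neutrophils, 5 barcodes held most of the day 21 Camp UMIs. The lower genes were Igtp, an interferon-induced GTPase (-1.84 in neutrophils to -0.64 in monocytes), Pym1, an exon junction factor, and Serinc3, a membrane protein that limits retroviral infectivity. Granule RNA of neutrophils (Camp, Ngp, Ltf, S100a8 and S100a9) was higher on day 21 in every class, for example 1112 and 3534 CPM summed in T cells and 1645 and 3428 CPM in microglia, where 5 of 1259 and 1 of 525 barcodes were granule-rich on day 21 and none on day 13.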

How the data were processed

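The deposited files hold UMI counts per gene and barcode in 10x matrix form, made by the authors with Cell Ranger 2.0.2 on build mm10, per the submitters' processing notes, which give no options for it here. The 2 wild-type libraries held 20298806 UMIs (day 13) and 24243660 UMIs (day 21), and they shared 24 barcodes, 0.659% of the smaller. Gates were counts of detected markers. No doublet caller was run: barcodes that passed another class's gate were left out, except that dendritic cells could also pass the monocyte gate. Class sums were scaled to CPM, and log2 ratios used a pseudocount of 1 CPM. Intervals are exact (Poisson for CPM, conditional binomial for ratios, Clopper-Pearson for shares) at 95%, and UMIs of 1 library are not replicates. Classes with 100 or more barcodes on both days were compared.

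In each class the 8 highest and 8 lowest ratios were eligible for naming (50 CPM or more on either day, 100 UMIs or more over both, without gate, mitochondrial, ribosomal, hemoglobin, immunoglobulin, T cell receptor, sex-linked and unnamed genes), with up to 4 members of each described list. Outside this rule, Isg15, Ciita, Cxcl9, Cxcl10, Arg1, Cx3cr1, Apoe, Trem2, Nkg7, Jun, Eno1 and the class II and granule genes not at the top of their lists were named after their values were seen. The members and lists were chosen with earlier results of these data known, and the number of markers a gate needs was set after its distribution was seen. Of 29 lists, 4 members were not matched. The functions were tested on simulated data. Alternatives were edgeR 4.0.16 TMM scaling (R 4.3.3), other CPM minimums, pseudocounts of 0.1 and 10 CPM, a 2-fold threshold, means over barcodes, thinning to 1500 UMIs, 1 more marker, at most 5% mitochondrial UMIs, and no barcodes above 2 times the class median UMIs. Keeping barcodes of several gates, and leaving out granule-rich barcodes, were chosen after seeing the data. Python 3.11.15 with scipy 1.17.1 was used.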

Additional observations from a re-analysis of the deposited data

Results flagged for a closer look

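Each value here stood on opposite sides of no difference in the wild-type pair and in the pair of miR-155 knockout libraries of the same days. That contrast was not tested, since each pair has 1 library a day, and the titles of the knockout pair carry the same prefixes by day.

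The share of microglia had a day 21 to day 13 ratio of 0.362 in wild type and of 3.12 in the knockout. Counting every barcode that passed the microglia gate gave 38.9% and 25% in wild type, and 28.7% and 53.1% in the knockout. Of these, 25.3% and 56.3% in wild type also passed the T gate, and 34.4% and 8.76% in the knockout. Their part was not tested. In microglia the median log2 ratio of monocyte genes was 0.66 in wild type (0.16 to 0.70 over the alternatives) and -1.22 in the knockout. Chil3 stood at 1.30 and -1.42, and S100a10, a calcium-binding protein, at 1.24 and -1.0. In monocytes and macrophages the chemokine list median was 0.67 in wild type (0.28 to 0.88 over the alternatives) and -0.99 in the knockout. Ccl7 stood at 3.08 and -1.06 there, and Ccl2 at 2.12 and -0.93. In neutrophils Thbs1 was at 1.88 and -1.69, Osm at 1.06 and -1.04, and Crip1 at 0.96 and -0.67. For Chil3 in microglia, 1 barcode of day 21 held 202 of 430 wild-type UMIs. Without high-UMI barcodes its wild-type ratio was -0.63, and with barcodes of several gates kept -0.16, on the side of the knockout. For Ccl7 in monocytes 1 barcode held 60 of 294 UMIs, and for Crip1 in neutrophils 5 barcodes held 50 of 130.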

How the results depend on the processing

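No paired analysis was possible because each group held 1 library. Of 46 list medians, 37 had 1 sign under every alternative run. The others were 8 lists with medians between -0.09 and 0.32 and neutrophil cell cycle (-0.80), which was 0.17 with thinned barcodes and 0.51 without high-UMI barcodes. The cell cycle median of monocytes (1.72) was 1.05 with a pseudocount of 10 CPM, 0.77 with thinned barcodes, 1.02 without high-UMI barcodes and 0.47 when barcodes of several gates were kept. Keeping those barcodes also gave -0.42 for type I genes in B cells, and -0.95 (type I) and -0.76 (interferon-gamma) in neutrophils. The cause was not tested.

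Day 21 to day 13 share ratios with thinned barcodes were 0.439 for microglia, 0.943 for monocytes, 0.125 for plasmacytoid dendritic cells and 1.65 for neutrophils. With barcodes of several gates kept they were 0.643 for microglia, 0.988 for monocytes, 1.88 for T cells and 0.518 for B cells. With 1 more marker they were 0.916 for monocytes and 0.509 for conventional dendritic cells.

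Counts of higher and lower genes are given in that order. TMM gave 566 and 396 in T cells and 407 higher in neutrophils. A minimum of 50 CPM, which tests fewer genes, gave 57 and 95 in microglia, 141 and 165 in monocytes, 47 and 157 in T cells, 155 and 201 in B cells and 40 and 219 in neutrophils. A pseudocount of 10 CPM gave 120 and 219 in microglia, 238 and 236 in monocytes, 117 and 258 in T cells, 171 higher in B cells, and 91 and 435 in neutrophils. A 2-fold threshold gave 78 and 142 in microglia, 147 and 143 in monocytes, 90 and 120 in T cells, 50 and 129 in B cells and 62 and 267 in neutrophils. Thinning gave 133 higher in B cells. With barcodes of several gates kept there were 135 and 341 in T cells, 690 higher in B cells and 446 higher in neutrophils.

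Of 3151 values for 268 genes, 30 reversed, in 24 genes. Thinned barcodes gave log2 ratios of -0.03 for Lcn2 and -0.17 for Pfkfb3 in T cells, -0.43 for C1qc and -0.15 for Camp in B cells, -0.14 for Gngt2 in neutrophils and 0.67 for Gzma in CD4 T cells. In CD8 T cells thinning gave -0.56 for Camp, -1.05 for Lcn2, -0.53 for Ngp, -0.024 for S100a8 and 0.99 for Tnfrsf9. Means over barcodes gave -0.011 for Gngt2 in neutrophils. Without high-UMI barcodes Chil3 was -0.63, Lgals3 -0.18 and Ngp -0.52 in microglia, Nrgn 0.045 in T cells and Tnfrsf9 0.49 in CD8 T cells. With barcodes of several gates kept, Chil3 was -0.16, H2-DMb2 -0.03 and Hpgd -0.034 in microglia, Pfkfb3 -0.22 in T cells, Chil3 0.21 and Nusap1 -0.42 in CD4 T cells, and Ccl1 -2.15 in CD8 T cells. Without granule-rich barcodes Ltf was -0.10 and Ngp -0.52 in microglia, Ltf -0.19 and Ngp -0.36 in monocytes, and Ngp -0.074 in T cells and -0.087 in CD8 T cells. Depth limits genes with few UMIs, whose ratio intervals are wide.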
